A study of Mus musculus with 8 samples.

Results

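The 36 mouse genes described here encode the enzymes of glycolysis and genes linked to the response to low oxygen, and they were chosen by symbol from a list of 37 names, in which Pkm2 is the older name of Pkm. They comprise 14 glycolytic enzymes, the oxygen-regulated transcription factor gene Hif1a, and 21 genes linked to hypoxia-inducible factor (HIF) as targets or regulators. All 36 were measured, among 18539 genes with a named probe, and all passed the filter on dim probes, as did 15203 genes in all. Expression was measured in RAW 264.7, a transformed macrophage-like line from BALB/c mice. Cells were exposed for 6 h to Lactobacillus acidophilus (2 arrays), Bacillus clausii (3 arrays) or Bifidobacterium bifidum (3 arrays), each alone at a multiplicity of infection of 1, and were compared with untreated cells of the same time point. Two-colour Agilent arrays carried treated RNA in the Cy5 channel and untreated RNA in the Cy3 channel, so each array gave a log2 ratio of treated over untreated cells. The dyes were never swapped, no untreated sample was hybridised on its own, and a single cell line stood for macrophages.

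Glycolysis converts glucose to pyruvate in the cytosol, and lactate dehydrogenase turns pyruvate into lactate, which leaves the cell through a monocarboxylate transporter. When oxygen is low, prolyl hydroxylases stop marking HIF proteins for destruction, and HIF raises the transcription of the glucose transporter, many glycolytic enzymes, angiogenic peptides and genes that curb mitochondrial oxidation. In macrophages, bacterial products are known to stabilise HIF and raise glycolysis without low oxygen, so these genes are read in studies of macrophage activation. HIF binds DNA at a short core whose letters are ACGTG or GCGTG.

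Promoter windows are shown for 6 members to which the results below return. Slc2a1, Adm and Bnip3 had ratios above 0 on all 8 arrays, Ankrd37 had the largest ratio with B. clausii on 1 slide, and Ero1l (now Ero1a) and Aldoc went opposite ways with B. clausii and B. bifidum there. Each window holds the 250 bases before an annotated start of the gene, the first listed where there were several. It runs 5′ to 3′ on the gene's strand, from RefSeq on GRCm38.p6. ACGTG and GCGTG are in capitals, or their reverse complements where the motif lies on the other strand.
Slc2a1, chr4:119108495-119108744, plus strand: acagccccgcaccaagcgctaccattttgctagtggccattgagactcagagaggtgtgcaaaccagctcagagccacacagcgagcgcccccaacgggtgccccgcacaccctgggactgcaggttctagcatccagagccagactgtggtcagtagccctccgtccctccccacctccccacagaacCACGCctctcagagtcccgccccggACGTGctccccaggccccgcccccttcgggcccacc
Adm, chr7:110627407-110627656, plus strand: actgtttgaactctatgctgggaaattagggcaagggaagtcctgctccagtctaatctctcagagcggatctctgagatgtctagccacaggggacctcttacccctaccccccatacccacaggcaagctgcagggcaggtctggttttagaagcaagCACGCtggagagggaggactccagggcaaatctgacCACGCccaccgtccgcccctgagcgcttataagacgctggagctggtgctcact
Ankrd37, chr8:45999851-46000100, minus strand: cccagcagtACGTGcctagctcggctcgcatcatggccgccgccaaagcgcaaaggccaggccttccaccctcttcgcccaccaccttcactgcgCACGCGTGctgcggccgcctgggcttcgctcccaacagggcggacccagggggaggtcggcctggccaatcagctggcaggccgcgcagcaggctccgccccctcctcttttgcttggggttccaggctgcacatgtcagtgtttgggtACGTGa
Bnip3, chr7:138909507-138909756, minus strand: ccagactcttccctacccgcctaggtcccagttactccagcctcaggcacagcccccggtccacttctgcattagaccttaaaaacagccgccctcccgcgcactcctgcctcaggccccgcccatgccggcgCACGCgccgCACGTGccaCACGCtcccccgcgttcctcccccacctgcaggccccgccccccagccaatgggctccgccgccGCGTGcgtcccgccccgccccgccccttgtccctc
Ero1a, chr14:45318573-45318822, minus strand: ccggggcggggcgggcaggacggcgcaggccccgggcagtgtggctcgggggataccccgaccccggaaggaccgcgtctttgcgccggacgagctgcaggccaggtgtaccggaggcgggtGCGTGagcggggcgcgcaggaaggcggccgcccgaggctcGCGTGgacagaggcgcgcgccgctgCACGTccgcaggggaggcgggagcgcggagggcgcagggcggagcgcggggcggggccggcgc
Aldoc, chr11:78322823-78323072, plus strand: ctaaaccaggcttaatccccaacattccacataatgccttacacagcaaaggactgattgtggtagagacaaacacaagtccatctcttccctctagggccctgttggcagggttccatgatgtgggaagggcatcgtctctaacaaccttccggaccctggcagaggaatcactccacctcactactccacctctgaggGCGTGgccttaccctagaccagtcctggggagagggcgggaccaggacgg
Slc2a1 held 1 match of each motif, at 61 and 36 bases before the start. Bnip3 held 5 matches, of which 2 are the ACGTG core of 1 palindrome read on both strands, and in Ankrd37 a GCGTG match on each strand overlap in 1 run of capitals. Aldoc held 1 match, 50 bases before its start. Windows were found for 34 of the 36 members. Only 20 of these were found to end at the first base of the gene, so distances refer to the start used. At least 1 motif was present in 26 of the 34 windows (76.5%), in 9 of 14 for the glycolytic enzymes and in 17 of 20 for the other members, against 38.6% of the 27025 windows in the table. A match describes the letters only and says nothing of binding in these cells.

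The 8 arrays lay on 2 slides. Slide 1 carried B. clausii array 3, B. bifidum array 3 and both arrays with L. acidophilus, and slide 2 carried arrays 1 and 2 of the other two bacteria. On 7 arrays 21508 to 26473 of 41174 probes were well above background, and on B. clausii array 3 only 12543 were. The grid of that array was not rated good, and its repeat spots varied by 72.5% in Cy5 and 67.4% in Cy3. No spot was saturated on slide 1, and 84 to 131 spots were on each slide 2 array. Saturated spots were left out, so Aldoa had no value on slide 2. Gpi1 and Pgam1 had a slide 2 value on B. bifidum array 2 alone, and the Ldha probe used lacked B. clausii array 1. Of the macrophage markers, Csf1r, Adgre1, Lyz2, Cd14, Fcgr3 and Mpeg1 were well above background in untreated cells on 8 arrays and Itgam on 7, whereas Dcn, Cd3g, Ms4a1 and Epcam, which mark fibroblasts, T cells, B cells and epithelium, were so on 0. In RNA from whole cultures, fewer cells of a type and less RNA per cell cannot be told apart.

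The ratios of the members differed by slide, and within slide 2 also by strain. Across the 36 genes, log2 ratios on slide 1 correlated at r = 0.78 to 0.87 between arrays of different strains (5 pairs), and those on slide 2 at 0.44 to 0.53 (4 pairs). Arrays of the same strain on the same slide correlated at 0.94 and 0.997 on slide 2 and at 0.89 on slide 1. Arrays of the same strain on different slides correlated at 0.07 to 0.20 (4 pairs). Over all genes the range was 0.29 to 0.58 for different strains on slide 1 and 0.47 to 0.51 on slide 2, and 0.00158 to 0.00781 for the same strain on different slides. These coefficients describe genes that share arrays, labelling and brightness, and genes are not independent replicates. B. clausii arrays 1 and 2 were the most alike pair, at r = 0.997. Across 115 probes with 10 repeat spots, their median difference in log2 ratio was 0.021, below the median standard error of 0.0501 that the repeat spots give, and 2.61% of probes differed by more than 2 standard errors (11.3% when spots were matched by position). The B. bifidum pair on slide 2 exceeded 2 standard errors for 37.4% of probes. The L. acidophilus pair did so for 17.8%, and its median difference of 0.0292 was also below its median standard error of 0.0324. A like limit may hold for that pair. B. clausii arrays 1 and 2 may therefore be less than independent, and counts of called genes with B. clausii over all arrays, with the slide as a block and on slide 2 are also given with the 2 arrays averaged and counted as 1 sample. Of 28 members measured on all 8 arrays, Slc2a1, Adm, Bnip3 and Vegfa had a log2 ratio above 0 on every array. Eno1, Hif1a and Kdm3a had one below 0 on every array. These signs are those of the probe used for each gene, and other probes of Vegfa and Kdm3a differed on slide 1. The dyes were never swapped. For the part of a ratio that all arrays share, unequal dye uptake by a probe and a response cannot be told apart.

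**Figure D1:**
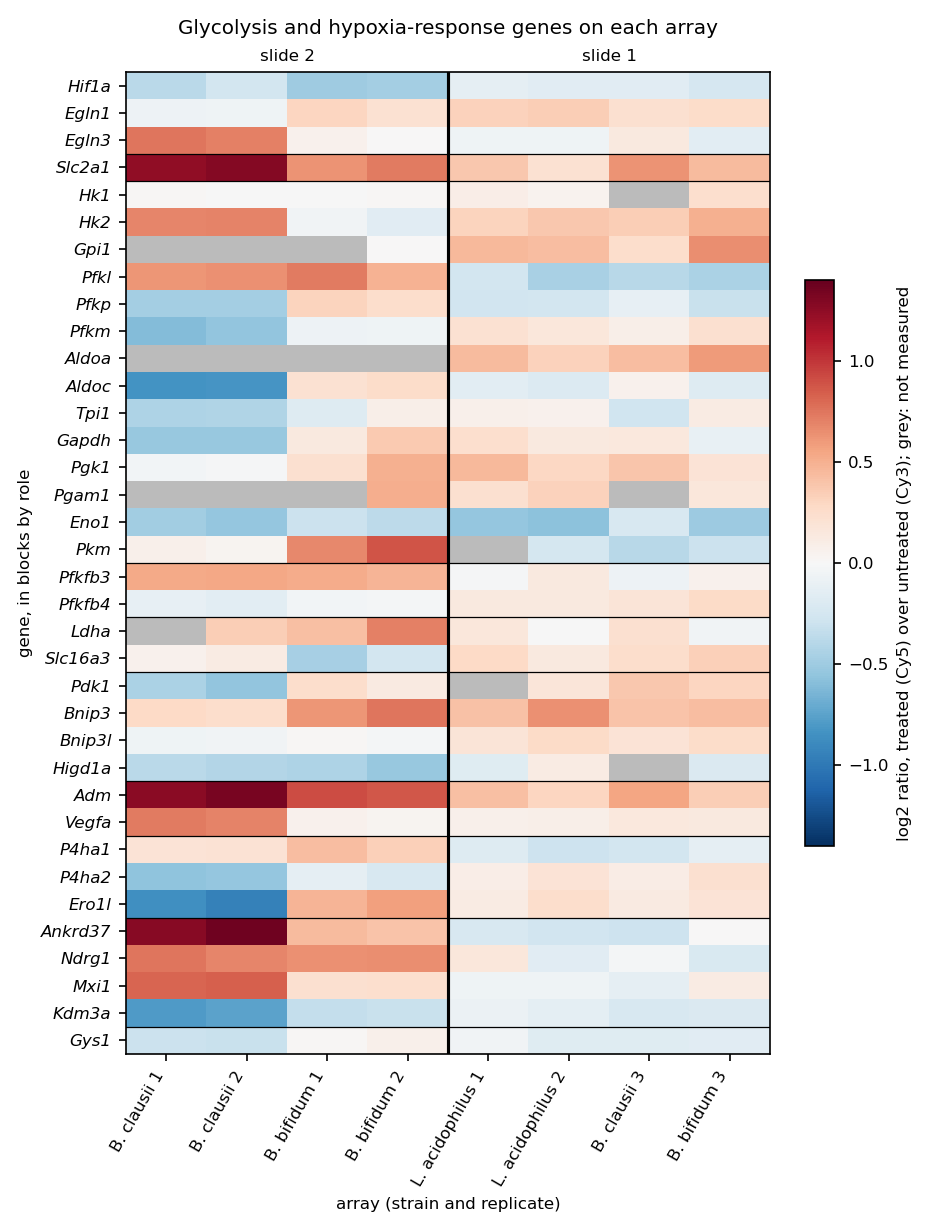
Heat map of the log2 ratio of treated over untreated cells (colour) for the 36 members (rows, grouped by role) on the 8 arrays (columns, grouped by slide and strain), with missing values in grey. The slide 1 columns look alike across strains, and the slide 2 columns of B. clausii and B. bifidum carry the larger ratios, such as 1.24 and 1.29 for Slc2a1 with B. clausii against 0.62 on slide 1.

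The comparison of each strain with untreated cells over all arrays gave few calls among the members. With B. clausii, 5 of 35 members rose and 3 fell, against 2.01% and 2.5% of all genes (Pgam1 had no B. clausii value). Slc2a1, the main glucose transporter of these cells, had log2 ratios of 1.24, 1.29 and 0.62 on arrays 1 to 3 and rose by 1.05 ± 0.13 (SE, n = 3, adjusted p = 0.0183). Adm, which encodes the vasodilator peptide adrenomedullin, had 1.27, 1.33 and 0.55 and rose by 1.05 ± 0.16 (adjusted p = 0.0368). All 3 arrays stood above 0 for both genes, and the array of slide 1 was the lowest. The other rises were those of the hexokinase gene Hk2 (0.57 ± 0.13, adjusted p = 0.0476), the prolyl hydroxylase gene Egln3 (0.53 ± 0.12, adjusted p = 0.0454) and the angiogenic factor gene Vegfa (0.52 ± 0.11, adjusted p = 0.0424). The falls were those of the histone demethylase gene Kdm3a (−0.59 ± 0.11, adjusted p = 0.039), the enolase gene Eno1 (−0.42 ± 0.08, adjusted p = 0.0413) and the triosephosphate isomerase gene Tpi1 (−0.38 ± 0.08, adjusted p = 0.0422). These calls rested on the set of arrays fitted: limma called 0 members without any of B. clausii arrays 1 or 2, B. bifidum arrays 1 or 2, or either L. acidophilus array (12 to 22 at an unadjusted p under 0.05), 22 without B. clausii array 3 and 13 without B. bifidum array 3. When B. clausii arrays 1 and 2 were counted as 1 sample, limma called 0 of the 8 genes, at adjusted p = 0.276 to 0.352, with 12 members at an unadjusted p under 0.05. In the fit of all arrays 22 of the 35 members had an unadjusted p under 0.05, against 30.5% of all genes. For fits with arrays left out or averaged, here and with B. bifidum below, no share of all genes is given. Those counts describe the members alone.

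With B. bifidum over all arrays, 1 of 36 members rose and 1 fell, against 0.362% and 1.16% of all genes. Bnip3, which encodes a mitochondrial protein of mitophagy, had log2 ratios of 0.62, 0.75 and 0.43 and rose by 0.60 ± 0.08 (SE, n = 3, adjusted p = 0.0189), although it was −0.057 when arrays were only median-centred. Hif1a had −0.50, −0.48 and −0.23 and fell by 0.40 ± 0.08 (adjusted p = 0.0463). After loess Bnip3 was also at 0.25 to 0.64 on every array of the other strains, and Hif1a was below 0 on each. Unequal dye uptake by their probes and a response therefore cannot be told apart. With the B. clausii pair as 1 sample, Bnip3 kept its call (adjusted p = 0.0481) and Hif1a did not (adjusted p = 0.0875). Limma called 0 members with B. bifidum without any of B. bifidum arrays 1 or 2, B. clausii arrays 1 or 2, or either L. acidophilus array (9 to 14 at an unadjusted p under 0.05), 10 without B. clausii array 3 and 8 without B. bifidum array 3. With L. acidophilus limma called 0 of 36 members, against 0% of all genes, and 6 of 36 had an unadjusted p under 0.05, against 7.31%. Eno1 had −0.56 with L. acidophilus (adjusted p = 0.313) and Bnip3 had 0.52 (adjusted p = 0.381). Between strains over all arrays limma called 0 members, against 0.0263% of all genes for B. clausii over B. bifidum, 0.0132% for B. clausii over L. acidophilus and 0% for B. bifidum over L. acidophilus. At an unadjusted p under 0.05 there were 10 of 35 (11.8% of all genes), 11 of 35 (10.8%) and 2 of 36 (3.8%) in these comparisons.

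With B. clausii and B. bifidum, the share of members with 1 sign on every array of the strain was near that of all genes. With B. clausii, 7 of 30 members measured on its 3 arrays were above 0 throughout and 6 below (43.3%, against 41.7% of all genes). With B. bifidum, 11 of 33 were above and 4 below (45.5%, against 40.1%). With L. acidophilus, whose 2 arrays share a slide, 19 of 34 were above and 11 below (88.2%, against 73.3%). With the slide as a block, which assumes that a slide shifts all strains alike, 10 members rose and 7 fell with B. clausii (25% of all genes called), 6 rose and 3 fell with B. bifidum (13.7%), 3 rose and 1 fell with L. acidophilus (2.24%), and 1 differed between B. clausii and B. bifidum (1.53%). With the B. clausii pair as 1 sample under this block, 3 rose and 2 fell with B. clausii, 5 rose and 3 fell with B. bifidum, and limma called 0 with L. acidophilus and 0 between B. clausii and B. bifidum (9 and 10 at an unadjusted p under 0.05). L. acidophilus had no slide 2 array, so its slide term came from the other strains. The counts with the pair as 1 sample have no share of all genes beside them. With the replicate number as a block, which coincides with the slide for B. clausii and B. bifidum, 18 members were called with B. clausii (28.2% of all genes), 11 with B. bifidum (14.4%), 3 with L. acidophilus (3.26%), and limma called 0 between B. clausii and B. bifidum (0.0198%, with 15 members at an unadjusted p under 0.05). The pair of B. clausii carries 2 replicate numbers, so it was not averaged in that fit.

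Within slide 2, where each strain has 2 arrays, the members moved strongly and in part in opposite directions with the 2 bacteria. With B. clausii 12 of 33 measured members rose and 14 fell, against 25.4% and 30.4% of all genes. With B. bifidum 19 of 35 rose and 6 fell, against 14.8% and 23.7%. These shares belong to this fit alone, and the counts under other settings below have no share of all genes beside them. With the B. clausii pair as 1 sample, 12 rose and 13 fell with B. clausii, and 19 and 6 with B. bifidum. Pfkfb4 and P4ha1 then lost their calls and Ldha gained one, and the enzymes kept 2 rises and 6 falls with B. clausii. With median centring in place of loess, 0 rose and 14 fell with B. clausii and 0 rose and 17 fell with B. bifidum, and from the scanner's processed signals 5 rose and 6 fell with B. bifidum (8 and 3 in the deposited matrix). The glycolytic enzymes were mostly lower with B. clausii, where 2 of 11 rose (Hk2 and Pfkl, of which Pfkl was below 0 with median centring) and 6 fell, with a median of −0.43, against −0.01 for all genes. With B. bifidum 7 of 13 enzymes rose and 1 fell after loess (median 0.24), and all 7 rises had the opposite sign with median centring. Pgam1, among these 7 and the 19 above, had a value on 1 slide 2 array alone, so its spread was taken from other genes. Of the 21 HIF-linked genes, 10 rose and 7 fell with B. clausii (median 0.20), where the rises of Pfkfb3, Bnip3 and P4ha1 were below 0 with median centring, and 12 rose and 4 fell with B. bifidum (median 0.23), of which only Adm stayed above 0 with median centring. Ratios to untreated cells thus depend on how intensity-dependent dye bias was removed, and the scaling values are given at the end. Medians on single arrays are given as a description: the enzyme median was −0.43 and −0.42 on the slide 2 arrays of B. clausii and 0.08 on its slide 1 array, and 0.14, 0.24 and 0.14 on the 3 B. bifidum arrays.

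On slide 2 after loess, the glucose uptake gene Slc2a1 rose with both strains and Hk2 with B. clausii alone. Slc2a1 had 1.24 and 1.29 with B. clausii and rose by 1.26 ± 0.05 there, or 2.4-fold (SE, n = 2, adjusted p = 0.000111), with 0.67 under median centring. With B. bifidum it had 0.63 and 0.73 and rose by 0.68 ± 0.05 after loess (adjusted p = 0.000684), but had −0.31 with median centring. Its slide 1 ratios were 0.62 with B. clausii, 0.44 with B. bifidum, and 0.38 and 0.21 with L. acidophilus, so no array was at or below 0. Hk2, the inducible hexokinase that traps glucose in the cell, had 0.68 and 0.69 with B. clausii, where it rose by 0.69 ± 0.05 after loess (adjusted p = 0.000303) but had 0.023 with median centring (adjusted p = 0.961), and −0.05 and −0.16 with B. bifidum, where it did not pass. On slide 1 Hk2 was above 0 on every array, at 0.34 with B. clausii, 0.50 with B. bifidum, and 0.31 and 0.38 with L. acidophilus. Hk1, the constitutive hexokinase, lay between −0.01 and 0.23 on the 7 arrays that measured it. The phosphoglucose isomerase gene Gpi1 had 0.24 to 0.65 on the 4 slide 1 arrays and 0.01 on B. bifidum array 2, where part of its spots were unsaturated.

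The 3 phosphofructokinase subunits, which commit sugar to glycolysis, differed from each other. Pfkl, the liver-type subunit, had 0.62 and 0.64 with B. clausii and 0.72 and 0.48 with B. bifidum on slide 2, and rose with both after loess (0.63 ± 0.07 and 0.60 ± 0.07), with −0.057 and −0.28 under median centring. On slide 1 its 4 ratios were all below 0, from −0.45 to −0.26. Pfkp, the platelet-type subunit, had −0.47 and −0.48 with B. clausii, where it fell by 0.48 ± 0.04, and 0.32 and 0.24 with B. bifidum, where it rose by 0.28 ± 0.04 after loess and had −0.60 with median centring. Pfkm, the muscle-type subunit, had −0.61 and −0.55 with B. clausii and fell by 0.58 ± 0.04, while with B. bifidum it had −0.07 and −0.06 and did not pass. On the probes used, Pfkl and Pfkp therefore had slide 2 arrays of 1 sign with B. bifidum and slide 1 arrays of the other.

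The middle of the pathway was lower with B. clausii on slide 2. Aldoc, a brain-enriched aldolase gene, had −0.84 and −0.82 with B. clausii and fell by 0.83 ± 0.04 (adjusted p = 0.000164). Aldoc had 0.22 and 0.26 with B. bifidum and rose by 0.24 ± 0.04 after loess (adjusted p = 0.00904), but had −0.67 with median centring. The 2 strains did not overlap on slide 2, and on slide 1 Aldoc lay between −0.19 and 0.06 on all 4 arrays. Aldoa, the main aldolase, had values on slide 1 alone, from 0.32 to 0.60. Gapdh, the dehydrogenase of glyceraldehyde 3-phosphate, had −0.54 and −0.53 with B. clausii and fell by 0.54 ± 0.06. With B. bifidum it had 0.14 and 0.36 and rose by 0.25 ± 0.06 after loess, though it had −0.0097 from the scanner's processed signals and −0.77 with median centring. Tpi1 had −0.43 and −0.42 with B. clausii and fell by 0.43 ± 0.07, and with B. bifidum had −0.18 and 0.08 and did not pass.

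The last steps showed the 1 enzyme that was below 0 throughout. Eno1 had −0.49, −0.54 and −0.23 with B. clausii, −0.30, −0.37 and −0.51 with B. bifidum, and −0.54 and −0.58 with L. acidophilus. On slide 2 it fell with B. clausii by 0.51 ± 0.04 (adjusted p = 0.000559) and with B. bifidum by 0.33 ± 0.04 (adjusted p = 0.00354). With 1 dye orientation throughout, unequal dye uptake by its probe and a response cannot be told apart. That probe, the only one of Eno1, was well above background on 7 arrays. Its untreated log2 Cy3 brightness was 8.42 on B. clausii array 3 and 10.25 on B. bifidum array 2, against 11.80 to 11.93 on the others. Pkm, which makes pyruvate, had 0.08 and 0.04 with B. clausii, which did not pass, and 0.67 and 0.88 with B. bifidum, where it rose by 0.77 ± 0.06 after loess (adjusted p = 0.000833) and had −0.22 with median centring. On slide 1 the 3 arrays that measured Pkm were below 0, at −0.39 with B. clausii, −0.31 with B. bifidum and −0.24 with L. acidophilus array 2. Pgk1, the phosphoglycerate kinase that makes the first ATP of the pathway, did not pass with B. clausii (−0.04 and −0.02) and rose with B. bifidum by 0.36 ± 0.07 after loess, with −0.68 under median centring. Pgam1, the phosphoglycerate mutase, had 0.16 to 0.32 on 3 slide 1 arrays and 0.50 on B. bifidum array 2, its 1 slide 2 value. That value was counted as a rise after loess, and was −1.10 with median centring and −0.070 from the processed signals.

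**Figure D2:**
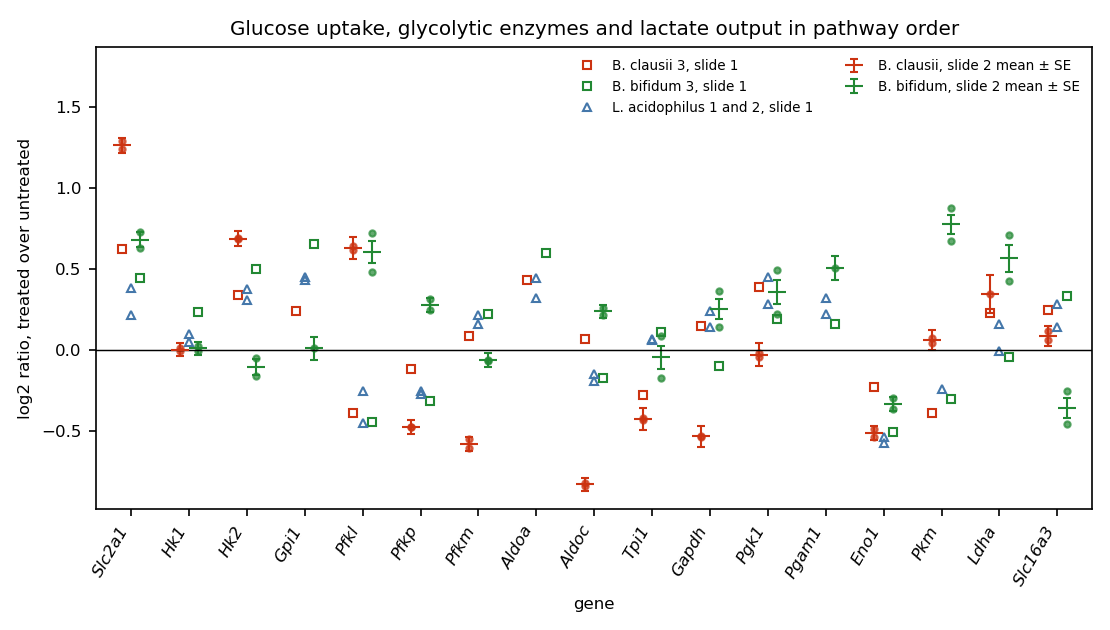
Log2 ratio of treated over untreated cells (vertical axis) for glucose uptake, glycolytic enzymes and lactate output in pathway order (horizontal axis). Filled points are single slide 2 arrays with the strain mean ± SE, and open symbols are single slide 1 arrays. On slide 2 the B. clausii points lie below 0 at Pfkp, Pfkm, Aldoc, Tpi1, Gapdh and Eno1, and those of B. bifidum lie above 0 at Pfkp, Aldoc, Gapdh and Pkm, where its ratios were below 0 with median centring.

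The enzymes that set the level of the activator of phosphofructokinase, and the genes of lactate output, were mixed. Pfkfb3, the inducible form in macrophages, had 0.53 and 0.54 with B. clausii and 0.52 and 0.47 with B. bifidum on slide 2, and rose by 0.54 ± 0.04 and 0.49 ± 0.04 after loess, with −0.14 and −0.43 under median centring. On slide 1 it lay between −0.08 and 0.13. Pfkfb4 had −0.12 and −0.15 with B. clausii, a fall of 0.13 on the log2 scale that ended when the pair was counted as 1 sample (adjusted p = 0.199). Ldha, which makes lactate, had 0.35 on B. clausii array 2, the only slide 2 value there of the probe used. With B. bifidum that probe had 0.42 and 0.71, and Ldha rose by 0.57 ± 0.08 after loess and had −0.48 with median centring. The other Ldha probe had 0.75 and 0.69 with B. clausii on slide 2 and 0.45 on B. bifidum array 1. On slide 1 it had 0.64 and 0.76 with L. acidophilus and 0.72 with B. bifidum. The probe used had 0.16, −0.0043 and −0.047 on those arrays. The lactate exporter gene Slc16a3 did not pass with B. clausii (0.06 and 0.11) and fell with B. bifidum by 0.36 ± 0.06 (−0.46 and −0.25), whereas its slide 1 ratios were 0.14 to 0.33. Gys1, the glycogen synthase gene, had −0.30 and −0.31 with B. clausii and fell by 0.31 ± 0.04, and lay at 0.01 and 0.07 with B. bifidum.

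Genes that act on mitochondria did not move as a group. Bnip3 had 0.28 and 0.25 with B. clausii on slide 2, a rise of 0.26 ± 0.05 (adjusted p = 0.00822) that turned to −0.053 with the processed signals and −0.37 with median centring. With B. bifidum it had 0.62 and 0.75 there and rose by 0.69 ± 0.05 after loess (adjusted p = 0.000728), with −0.27 under median centring. It had 0.41 and 0.64 with L. acidophilus, and no array was below 0. Its paralog Bnip3l, also a mitophagy receptor, passed with neither strain on slide 2 and lay between −0.06 and 0.27 over all 8 arrays. Pdk1, a kinase that blocks pyruvate entry into oxidation, had −0.44 and −0.55 with B. clausii, a fall of 0.50 ± 0.05, and 0.25 and 0.13 with B. bifidum, a rise of 0.19 after loess (adjusted p = 0.046) that was −0.67 with median centring. Higd1a, which acts on the respiratory chain, fell with both strains, at −0.38 and −0.41 with B. clausii and −0.44 and −0.53 with B. bifidum, on a probe whose partner read otherwise.

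The oxygen-sensing genes changed in different ways. Hif1a, the oxygen-regulated subunit of HIF, was below 0 on all 8 arrays: −0.38, −0.25 and −0.16 with B. clausii, −0.50, −0.48 and −0.23 with B. bifidum, and −0.13 and −0.16 with L. acidophilus. Within slide 2 it fell with B. clausii by 0.31 ± 0.05 (adjusted p = 0.0041) and with B. bifidum by 0.49 ± 0.05 (adjusted p = 0.00155). HIF is controlled mainly through the stability of its protein, which these arrays do not measure. Egln3 had 0.75 and 0.71 with B. clausii and rose by 0.73 ± 0.04 after loess (adjusted p = 0.000227) but had 0.054 with median centring (adjusted p = 0.897), and with B. bifidum it had 0.06 and 0.00 and did not pass. Its slide 1 ratios were 0.13 with B. clausii, −0.15 with B. bifidum, and −0.07 and −0.06 with L. acidophilus. Egln1, the main prolyl hydroxylase, did not pass with B. clausii (−0.07 and −0.06) and rose with B. bifidum by 0.26 ± 0.05 after loess (0.30 and 0.21), with −0.28 under median centring.

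The genes of secreted peptides both rose with B. clausii on slide 2 after loess. Adm had 1.27 and 1.33 with B. clausii on slide 2 and rose by 1.30 ± 0.04, or 2.46-fold (SE, n = 2, adjusted p = 0.000102). With B. bifidum it had 0.92 and 0.86 and rose by 0.89 ± 0.04, or 1.85-fold (adjusted p = 0.000412). It kept its sign under median centring with both, at 0.62 and 0.08, where neither passed. Its slide 1 ratios were 0.55 with B. clausii, 0.34 with B. bifidum, and 0.43 and 0.30 with L. acidophilus, all above 0 and below those of slide 2. Vegfa had 0.72 and 0.70 with B. clausii and rose by 0.71 ± 0.04 after loess (adjusted p = 0.000212) but had 0.038 with median centring (adjusted p = 0.919), against 0.06 and 0.04 with B. bifidum, which did not pass. The other 4 of the 8 arrays lay between 0.07 and 0.15 for Vegfa.

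Ankrd37, an ankyrin repeat gene known as a HIF target, had opposite signs on the 2 slides with B. clausii. It had 1.28 and 1.37 with B. clausii on slide 2 and rose by 1.32 ± 0.05 (adjusted p = 0.000107), with 0.64 under median centring, and on the slide 1 array of the strain it had −0.29. With B. bifidum it had 0.45 and 0.40 on slide 2, a rise of 0.42 ± 0.05 after loess that was −0.47 with median centring, and 0.01 on slide 1. With L. acidophilus it had −0.22 and −0.26. Mxi1, an antagonist of MYC, had 0.82 and 0.84 with B. clausii on slide 2 and rose by 0.83 ± 0.04 after loess (adjusted p = 0.00016; 0.15 with median centring, adjusted p = 0.619), and rose with B. bifidum by 0.23 ± 0.04 after loess (−0.47 with median centring). Its slide 1 ratios were −0.12 to 0.12. Ndrg1, a stress-induced gene, had 0.75 and 0.68 with B. clausii and 0.64 and 0.65 with B. bifidum on slide 2, where it rose by 0.71 ± 0.04 and by 0.65 ± 0.04 after loess (0.058 and −0.29 under median centring), and its slide 1 ratios were −0.21 to 0.16. Kdm3a, itself a HIF target, went the other way: it had −0.79, −0.75 and −0.22 with B. clausii and −0.33, −0.32 and −0.20 with B. bifidum, and fell on slide 2 by 0.77 ± 0.04 and 0.32 ± 0.04.

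Ero1l had the largest called difference between the strains among the members, and the collagen genes differed less. Ero1l, the oxidase that forms disulfide bonds in the endoplasmic reticulum, had −0.86 and −0.95 with B. clausii on slide 2 and fell by 0.91 ± 0.05, 1.87-fold (adjusted p = 0.00019). Ero1l had 0.48 and 0.58 with B. bifidum and rose by 0.53 ± 0.05 after loess (adjusted p = 0.00129), but had −0.45 with median centring. On slide 1 its 4 ratios were 0.12 to 0.24 and did not separate the strains. P4ha1, a collagen prolyl hydroxylase subunit, had 0.19 and 0.20 with B. clausii, a rise of 0.20 ± 0.05 that ended with the pair as 1 sample (adjusted p = 0.0821), and 0.43 and 0.34 with B. bifidum, a rise of 0.39 ± 0.05. Both rises were below 0 with median centring, at −0.49 and −0.48. P4ha2, the related subunit, fell with B. clausii by 0.55 ± 0.05 (−0.56 and −0.54) and with B. bifidum by 0.18 ± 0.05 (−0.13 and −0.23).

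**Figure D3:**
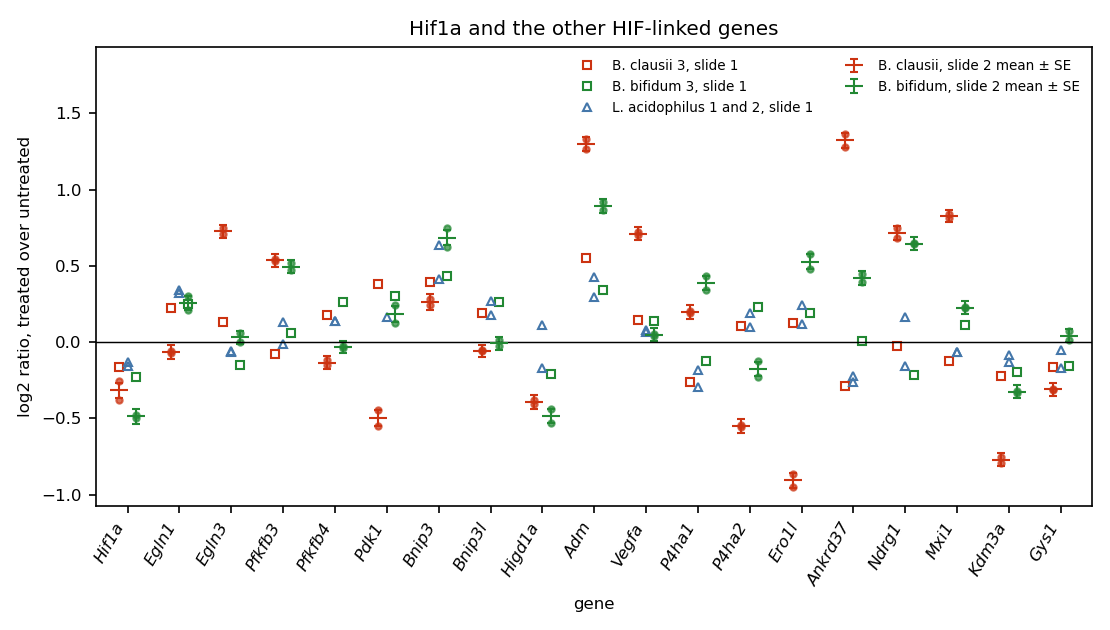
Log2 ratio of treated over untreated cells (vertical axis) for Hif1a and the HIF-linked genes outside uptake and lactate output (horizontal axis, by role). Filled points are single slide 2 arrays with the strain mean ± SE, and open symbols are single slide 1 arrays. Adm lies above 0 on all 8 arrays, and Ero1l and Pdk1 lie below 0 with B. clausii and above 0 with B. bifidum on slide 2, where the B. bifidum ratios were below 0 with median centring.

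The comparison of B. clausii with B. bifidum within slide 2 asked how the 2 bacteria differ, and an equal dye effect cancels in it. B. clausii was higher for 8 of 33 members and lower for 14, against 15% and 14.7% of all genes, and with its 2 arrays as 1 sample it was higher for 8 and lower for 12, since Pgk1 and Tpi1 no longer passed (adjusted p = 0.0529 and 0.0523). It was higher for 0 and lower for 2 from the processed signals, and higher for 1 and lower for 2 in the deposited matrix. No share of all genes is set beside the counts under these settings or with the pair as 1 sample. Among enzymes 1 of 11 was higher and 7 were lower (5 with the pair as 1 sample), with a median of −0.39, against 0.02 for all genes. Among HIF-linked genes 7 of 21 were higher and 7 lower, also with the pair as 1 sample. Ankrd37 was higher with B. clausii by 0.90 ± 0.07 (adjusted p = 0.00138), Hk2 by 0.79 ± 0.07 (adjusted p = 0.00176), Egln3 by 0.69 ± 0.06 (adjusted p = 0.00196) and Vegfa by 0.66 ± 0.06 (adjusted p = 0.00194). Mxi1, Slc2a1, Slc16a3 and Adm were higher by 0.60, 0.58, 0.44 and 0.41. Ero1l differed by −1.43 ± 0.07, 2.7-fold lower with B. clausii (adjusted p = 0.000929), Aldoc by −1.07 ± 0.06 (adjusted p = 0.00101), Gapdh by −0.79 ± 0.09 (adjusted p = 0.00336), Pfkp by −0.76 ± 0.06 (adjusted p = 0.00164) and Pkm by −0.72 ± 0.09 (adjusted p = 0.00392). The other lower genes ran from Pdk1 at −0.68 to Egln1 at −0.32.

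Both bacteria were set against untreated RNA on that slide, and Pfkp, Aldoc, Gapdh, Pdk1 and Ero1l fell with B. clausii and rose with B. bifidum after loess, with a called difference between them, although their B. bifidum ratios were below 0 with median centring. The sign of the difference between the bacteria was kept by all 8 higher genes and by 12 of the 14 lower genes under median centring, where Pgk1 had 0.10 and Tpi1 had 0.074, although limma then called 0 of 33 (8 at an unadjusted p under 0.05). On slide 1, with 1 array per strain, Aldoc was 0.06 with B. clausii and −0.18 with B. bifidum, and Ero1l was 0.12 and 0.19. Macrophage markers differed between the strains too: on slide 2 with B. clausii 5 of 7 measured markers fell and 0 rose, also with the pair as 1 sample (median −0.53), with Lyz2 at −1.64, Mpeg1 at −1.25 and Fcgr3 at −0.58, and with B. bifidum 1 fell and 1 rose (median 0.02), where median centring turned the rise but 0 of the falls. Their part in the result was not tested.

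On slide 1 alone, where few calls could be made over all genes, no member passed. Limma called 0 of 33 members with B. clausii (0.0529% of all genes), 0 of 36 with B. bifidum (0.0462%) and 0 of 36 with L. acidophilus (0%), with 18, 20 and 24 members at an unadjusted p under 0.05, against 21%, 26.3% and 25.8% of all genes. B. clausii and B. bifidum have 1 array each there, so their spread was taken from the 2 L. acidophilus arrays. Between strains there, 5 of 33 members had an unadjusted p under 0.05 for B. clausii over B. bifidum (14.6% of all genes), 4 of 33 for B. clausii over L. acidophilus (11%) and 2 of 36 for B. bifidum over L. acidophilus (8.78%). The enzyme medians were 0.08 on the B. clausii array, 0.14 on the B. bifidum array, and 0.22 and 0.10 with L. acidophilus. On the probes used, Aldoa, Gpi1, Hk2, Slc2a1, Adm and Bnip3 were among the members above 0 on all 4 slide 1 arrays. Eno1, Pfkl, Pfkp, Hif1a, Kdm3a and Gys1 were among those below 0 on all 4.

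In the untreated channel, members differed between slides about as often as all genes did. After between-array scaling, log2 Cy3 brightness did not overlap between the slides for 12 of 28 members (42.9%), against 36.5% of all genes. For 8 it was higher on slide 1 and for 4 on slide 2, against 14.5% and 22% of all genes. Adm was 12.49 ± 0.06 on slide 1 and 10.36 ± 0.07 on slide 2, and Vegfa was 12.56 ± 0.25 and 10.34 ± 0.03 (SD, n = 4 each). Ankrd37 was 12.87 ± 0.18 on slide 1 and 11.65 ± 0.10 on slide 2, and Ndrg1 was 13.75 ± 0.59 and 12.70 ± 0.02. Pfkfb3, Hif1a, Kdm3a and Slc16a3 were also brighter on slide 1. Egln3 went the other way, at 10.41 ± 0.16 on slide 1 and 12.30 ± 0.07 on slide 2, as did Pgk1, Pfkm and Gapdh. Of the members that rose with B. clausii on slide 2, Adm, Vegfa, Ankrd37 and Ndrg1 had a lower untreated level there and Egln3 a higher one, while those of Slc2a1, Mxi1 and Hk2 overlapped between the slides. Slide, scan and labelling run together, so they cannot be told apart.

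**Figure D4:**
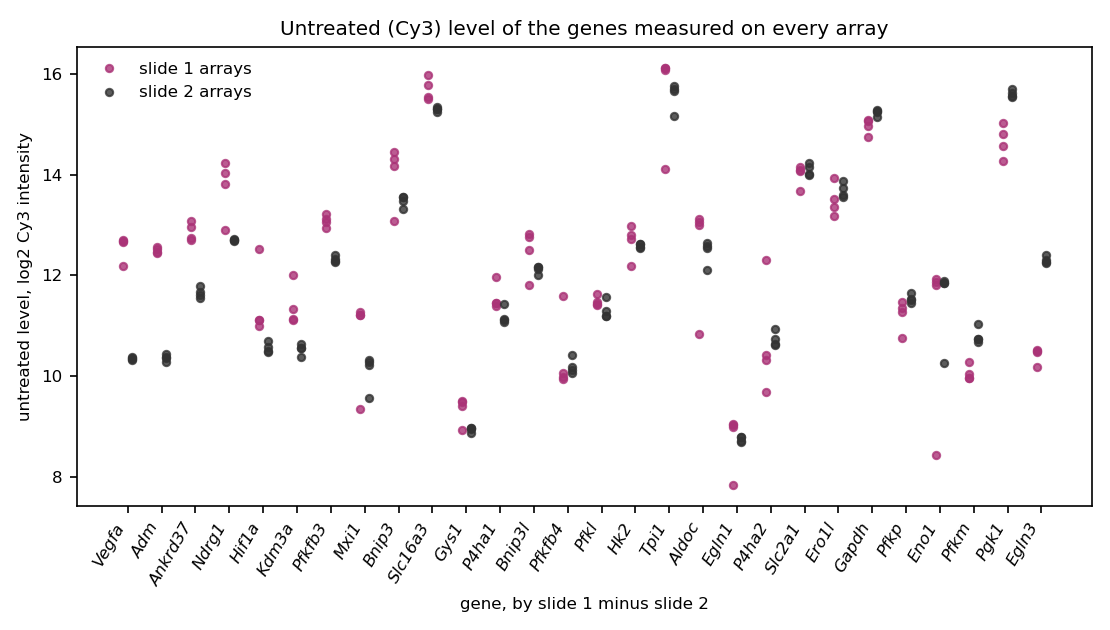
Log2 Cy3 brightness of untreated RNA (vertical axis, after loess and Aquantile) for the 28 members measured on all 8 arrays (horizontal axis, ordered by slide 1 minus slide 2), with 1 point per array. Vegfa and Adm stood 2.22 and 2.13 log2 units higher on slide 1 than on slide 2 (difference of means), and Egln3 differed by −1.89.

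Several members rest on a probe whose partner read differently. Of 12 genes with several measured probes on slide 2, the probes had 1 sign for 7 with B. clausii and for 6 with B. bifidum. The other probe of Ero1l had −1.95 and −1.92 with B. clausii and −0.42 and −0.42 with B. bifidum, so the rise with B. bifidum was not seen there, whereas the difference between the strains had the same direction. The other probe of P4ha1 had −0.66 and −0.56 with B. clausii and −0.28 and −0.29 with B. bifidum, opposite to the probe used. The other probe of Pdk1 had 0.16 and 0.09 with B. clausii and −0.01 and 0.03 with B. bifidum. The other probe of Higd1a, a dimmer one, had −0.07 and 0.22 with B. clausii and 0.26 and 0.06 with B. bifidum, so the falls were not seen there. The 3 Pfkfb3 probes averaged 0.09 to 0.54 with B. clausii and −0.12 to 0.49 with B. bifidum. The other probe of Pgk1 had 0.20 on B. clausii array 2 and 0.57 on B. bifidum array 2, its only slide 2 values, and that of Bnip3l averaged −0.29 with B. clausii and 0.08 with B. bifidum. Slide 2 means of the Pfkp, Kdm3a, Vegfa and Ldha probes had 1 sign with each strain. The 4 Vegfa probes averaged 0.47 to 1.34 with B. clausii and 0.01 to 0.63 with B. bifidum. On slide 1 the other Pfkp probe had 0.21 with B. clausii, 0.25 with B. bifidum, and 0.11 and 0.17 with L. acidophilus, opposite to the probe used. In the same order, the other Kdm3a probe had 0.24, −0.08, 0.04 and 0.15 there. The dimmest Vegfa probe had −0.28, −0.08, −0.06 and −0.13. The 5 Hk1 probes ran from −0.18 to 0.24 with B. clausii and from −0.14 to 0.39 with B. bifidum.

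Other genes of the same pathways, taken from lists of textbook members, moved on slide 2 in both directions. Of all genes 25.4% rose and 30.4% fell with B. clausii there, and 14.8% and 23.7% with B. bifidum, and counts near these shares say nothing particular to a list. Of 23 further glycolysis genes, 6 rose and 5 fell with B. clausii and 3 and 5 with B. bifidum after loess, and median centring kept the sign of all these falls but of only 1 of the 6 and 0 of the 3 rises. These shares lay near or below those of all genes, and with the B. clausii pair as 1 sample 3 rose and 3 fell with B. clausii. Hk3, a hexokinase of myeloid cells, had −0.98 ± 0.05 with B. clausii and 0.33 ± 0.05 with B. bifidum, and −1.52 and −0.30 with median centring. Of 12 genes of the HIF pathway, 4 rose and 7 fell with B. clausii and 3 and 3 with B. bifidum, where 0 of the rises and all falls kept their sign with median centring. Among the falls were Hif1an, which hydroxylates HIF, at −0.84 with B. clausii, and Elob, a subunit of the ligase that destroys HIF, at −0.81 with both. Of 32 further HIF targets, 10 rose and 13 fell with B. clausii and 11 and 5 with B. bifidum, and with median centring 8 of the 10 rises, 2 of the 11 and all falls kept their sign. Ddit4, an inhibitor of mTORC1, had 2.23 ± 0.04 with B. clausii and 1.57 with median centring, and its slide 1 array had no value. Hmox1, which degrades haem, had −1.01 on both B. clausii arrays and 0.85 ± 0.06 with B. bifidum, where median centring gave −0.17. With the B. clausii pair as 1 sample, 4 genes of the HIF pathway rose and 7 fell with B. clausii, as did 9 and 13 of the further targets.

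Neighbouring pathways also held calls on slide 2, to be read against the same shares of all genes. Of 14 further glycogen genes 0 rose and 9 fell with B. clausii, and 2 and 3 with B. bifidum, where median centring kept the sign of 8 of the 9 falls and of the 3, and of 0 of the 2 rises. With the B. clausii pair as 1 sample 0 rose and 5 fell there, while the counts of the pentose and pyruvate lists with B. clausii stayed as given. Pygl, a glycogen phosphorylase, had −1.24 ± 0.07 with B. clausii, and the branching enzyme gene Gbe1 had −0.83 ± 0.05 with B. clausii and 0.33 ± 0.05 with B. bifidum, where median centring gave −0.61. Of 8 genes of the pentose phosphate pathway 1 rose and 5 fell with B. clausii and 1 and 2 with B. bifidum, with both rises but 0 of the falls turned by median centring, and with G6pdx, its entry enzyme, at −0.84 and −0.69. Of 11 genes of pyruvate entry into mitochondria 2 rose and 2 fell with B. clausii and 1 and 4 with B. bifidum, of which only the 2 rises with B. clausii changed sign with median centring. The pyruvate dehydrogenase gene Pdha1 had 0.33 and 0.29 on the B. clausii arrays and −0.31 on both B. bifidum arrays, and differed by 0.62 ± 0.06 (adjusted p = 0.00219), although its mean with B. clausii was −0.37 with median centring. Over all arrays with B. clausii, Ddit4 (2.23) rose among the further HIF targets and Plin2 (−1.73) fell, and Ep300, a coactivator of HIF, fell by 0.57. Ddit4 and Plin2 lacked a value on B. clausii array 3.

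The scaling of the arrays set the level of the members' ratios more than that of most genes. Without the intensity-dependent correction, median centring moved the median of all genes on slide 2 to −0.31 with B. clausii and −0.42 with B. bifidum, and that of the members to −0.58 and −0.68. Of the 12 rises with B. clausii 8 kept their sign (10 relative to the median of all genes) and 0 kept their call, and all 14 falls kept their sign. Those falls ran from −0.91 to −0.13 after loess and from −1.56 to −0.77 with median centring. Of the 19 rises with B. bifidum only Adm kept its sign (7 relative to all genes), and all 6 falls did. The scanner's processed signals kept 11 of 12 rises and 14 of 14 falls with B. clausii, and 17 of 19 rises and 6 of 6 falls with B. bifidum, where the median of all genes was −0.15 and −0.13. Leaving out background correction kept every sign.

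**Figure D5:**
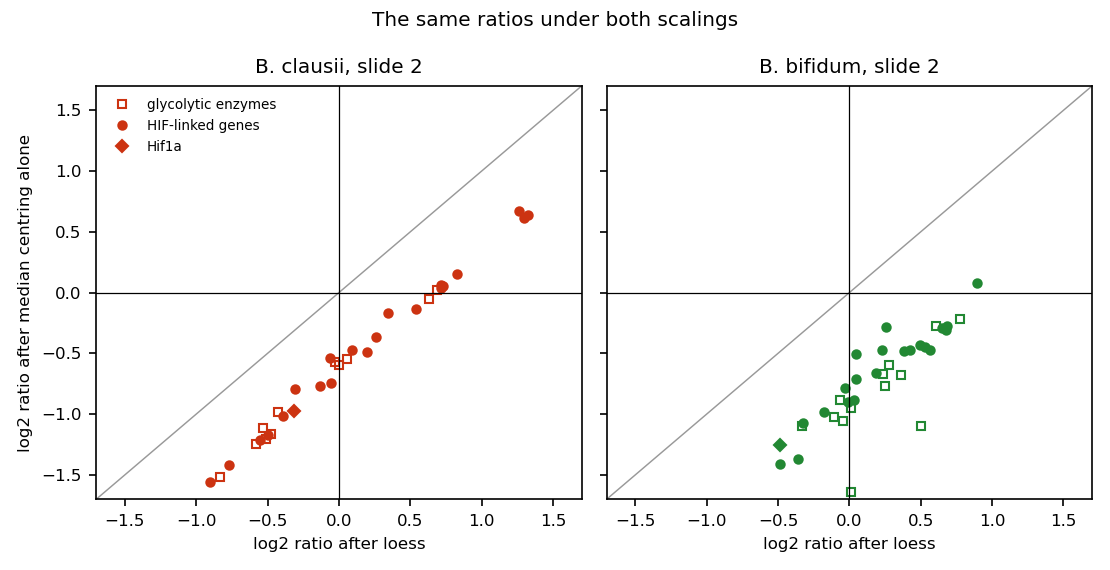
Slide 2 log2 ratios of the members after loess (horizontal axis) and after median centring alone (vertical axis), with B. clausii on the left, B. bifidum on the right and 1 point per gene; the grey line marks equal values. All points lie below the line, and with B. bifidum only Adm lies above 0 after median centring.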

How the data were processed

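The deposited scanner files hold linear intensity of spots and of their local background. Agilent Feature Extraction made them in version 10.7.3.1 per the file headers, but in version 10.5.1.1 per the submitters' processing notes. They also hold processed intensity and a log10 ratio of Cy5 over Cy3, per the file headers. The authors' deposited value table equalled that log10 ratio to within 0.005 on every array.

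The limma package 3.58.1 (R 4.3.3) was used throughout. Median spot signals were taken, since the mean was not among the columns used here. Background was corrected with normexp (offset 50), and log2 ratios from the deposited intensities were normalized within each array by loess. Outlier and saturated spots were left out, and spots of a probe averaged. Probes well above background on at least 2 arrays were kept, and named by symbol or through a RefSeq table of GRCm38.p6; the files name build mm9, so probe positions are not given. Each gene was represented by 1 probe, and the text gives others that read with the opposite sign on slide 2, and some that did so on slide 1. Log2 ratios were fitted by lmFit and eBayes with 1 coefficient per strain, over all arrays or those of slide 2, and p-values were adjusted over all genes (Benjamini-Hochberg, threshold 0.05). A ratio was tested against 0, so the spread of the untreated cells was not estimated apart from that of the ratio. Precision is limited by how few arrays there are.

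The design text calls the replicates biological, but no label links an array to a separate culture, so p-values measure array-to-array spread alone, and that spread may be technical. Replicate numbers were checked as pairs: deviations from the strain means correlated at 0.41, 0.29 and 0.46 between same-numbered B. clausii and B. bifidum arrays, and at −0.09 to −0.06 with L. acidophilus. For B. clausii and B. bifidum, arrays 1 and 2 lay on slide 2 and array 3 on slide 1, whereas both L. acidophilus arrays lay on slide 1. Slide 2 arrays of B. clausii and B. bifidum with unlike numbers correlated at 0.37 and 0.25. The check therefore cannot separate pairing by number from a shared slide. Values in every array are given for the members with the smallest p per role and for those whose slides or probes disagree, and up to 3 passing genes per further list are named, except 1 that is not reported here. Members and lists were chosen with earlier results of these data known. The steps were tested on simulated data. Alternatives covered background correction, scaling, filters, choice of probe, saturation, blocks by slide or replicate, and single arrays left out. The fits within slide 2 under each alternative, a stricter rule on saturation and the B. clausii pair as 1 sample, with and without the slide block, were added after seeing the data.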

Additional observations from a re-analysis of the deposited data

Results flagged for a closer look

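For 5 genes B. clausii and B. bifidum were each called on slide 2 in opposite directions, and the difference itself passed. The log2 difference of B. clausii over B. bifidum was −0.76 for Pfkp, −1.07 for Aldoc, −0.79 for Gapdh, −0.68 for Pdk1 and −1.43 for Ero1l. The ratio with B. bifidum had the other sign for all 5 under median centring, and other probes of Ero1l and Pdk1 read differently.

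In the untreated channel, 8 members had 1 array far from the others, among 8 arrays for 7 of them and among 5 for Gpi1, whose saturated spots were left out. On B. clausii array 3, the array with few probes above background, log2 Cy3 brightness was 12.53 for Hif1a, 7.84 for Egln1, 14.90 for Gpi1, 10.76 for Pfkp, 10.82 for Aldoc, 11.58 for Pfkfb4 and 11.97 for P4ha1. On L. acidophilus array 1 it was 13.67 for Slc2a1. Chance flags about 1 in 20 groups where the arrays of a group are independent and of 1 population. Here the arrays lay on different slides and most flags fell on the same array, so that rate need not hold. The cause was not tested.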

How the results depend on the processing

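Counts of called members over all arrays moved with most choices. They are given here without the share of all genes called under each choice. They show how the count moved, and not how members compare with other genes. With B. clausii the count of 8 became 2 without background correction, 1 from the processed signals, 1 from the deposited matrix, 0 with median centring, 5 with the mean of probes, 2 with a robust intensity trend, 0 with only the strain's own arrays, 1 with the slide as a random block, 0 with same-slide arrays averaged, 0 with the same-slide B. clausii arrays as 1 sample, 17 with the slide as a block, 26 on slide 2 alone and 0 on slide 1 alone. With B. bifidum the count of 2 became 1 without background correction, 0 from the processed signals, 0 from the deposited matrix, 0 with median centring, 1 with a robust trend, 0 with only its own arrays, 0 with the random block, 0 with same-slide arrays averaged, 1 with the B. clausii pair as 1 sample, 9 with the slide block, 25 on slide 2 alone and 0 on slide 1 alone. With the replicate number as a block the counts were 18 with B. clausii, 11 with B. bifidum, 3 with L. acidophilus, 0 for B. clausii over B. bifidum, 13 for B. clausii over L. acidophilus and 5 for B. bifidum over L. acidophilus, and on slide 2 this block gave 25, 24 and 22. With the slide block and the B. clausii pair as 1 sample, the counts were 5 with B. clausii and 8 with B. bifidum. The slide block gave 4 with L. acidophilus and 1 for B. clausii over B. bifidum, which was 22 on slide 2 alone. Leaving out single arrays gave 0 to 22 with B. clausii, 0 to 10 with B. bifidum, 0 to 14 for B. clausii over B. bifidum, 0 to 15 for B. clausii over L. acidophilus, and on slide 2 24 to 26, 17 to 25 and 16 to 22. On slide 2, median centring gave 14 with B. clausii and 0 between the strains, and the processed signals and deposited matrix gave 11 and 11 with B. bifidum and 2 and 3 between the strains. Median centring turned the sign of 25 single-gene values. Over all arrays this was Bnip3 with B. bifidum (−0.057). On slide 2 with B. clausii these were Bnip3 (−0.37), P4ha1 (−0.49), Pfkfb3 (−0.14) and Pfkl (−0.057), and between the strains Pgk1 (0.10) and Tpi1 (0.074). On slide 2 with B. bifidum these were Aldoc (−0.67), Ankrd37 (−0.47), Bnip3 (−0.27), Egln1 (−0.28), Ero1l (−0.45), Gapdh (−0.77), Ldha (−0.48), Mxi1 (−0.47), Ndrg1 (−0.29), P4ha1 (−0.48), Pdk1 (−0.67), Pfkfb3 (−0.43), Pfkl (−0.28), Pfkp (−0.60), Pgam1 (−1.10), Pgk1 (−0.68), Pkm (−0.22) and Slc2a1 (−0.31). The processed signals turned Bnip3 with B. clausii (−0.053) and Gapdh (−0.0097) and Pgam1 (−0.070) with B. bifidum, and the mean of probes turned P4ha1 with B. clausii (−0.21). Of 1305 single-gene values on slide 2, 1120 kept direction and call, 157 lost the call and 28 changed sign. The untreated count of 12 members became 16 with the processed Cy3 signal. The cause was not tested. B. clausii array 3 had the fewest probes above background, which limits values on slide 1.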
